A study of Mus musculus with 11 samples.

Results

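Fgl1, the 3 fibrinogen chain genes Fga, Fgb and Fgg, and Fgl2 were followed across 3 genotypes of mouse liver. These 5 genes of the 19938 measured were taken by name, and each was read on a probe set annotated to its symbol alone. Where a gene had several such probe sets, as Fga did, the one with the highest mean over the 11 arrays was used. Fgl1 was chosen by its measured level, known to be lower in the knockout livers, so its levels and changes are given as a description with no test. The chain genes and Fgl2 were added as relatives of Fgl1 and were tested.

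Fibrinogen is the plasma protein that thrombin turns into fibrin, the mesh of a blood clot. Hepatocytes build it from paired Aα, Bβ and γ chains and secrete it, and it is one of the acute-phase proteins, whose genes are induced in hepatocytes by interleukin 6 (IL-6) through the transcription factor STAT3. Fgl1 is a related hepatocyte protein that carries a fibrinogen-like domain but does not form clots. It is known as a growth factor for hepatocytes and as a ligand of the inhibitory T cell receptor LAG-3, and its gene is also induced by IL-6. Fgl2 shares the same kind of domain. Its membrane form on macrophages and endothelial cells cleaves prothrombin, and its soluble form, made by regulatory T cells, binds inhibitory Fcγ receptors.

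Liver RNA came from male mice aged 14 months, and the tissue was free of tumours. The groups were mice that lacked both genes, labelled Mdr2-KO/IL6-KO (4 arrays), Mdr2-KO mice (4 arrays) and wild-type mice (3 arrays), so that the IL-6 knockout was present only on top of the Mdr2 knockout. Mdr2, the product of Abcb4, is the transporter that puts phosphatidylcholine into bile, and mice without it have lifelong bile duct injury. The strain label C57BL/6 stands with the wild-type samples, and the design text applies it to the series. Sample titles carry one letter prefix for wild type and another for all knockouts, so what these prefixes stand for and the genotype cannot be told apart wherever wild type is compared. Each title has its own number after the prefix, and what the numbers stand for is not stated. No label says that each array was a separate mouse, so a p-value covers the spread among these samples only, which may be technical.

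The targeted genes were read first. Abcb4 had a log2 level of 8.09 ± 0.204 in Mdr2-KO/IL6-KO livers, 7.74 ± 0.194 in Mdr2-KO livers and 9.83 ± 0.105 in wild-type livers (SD, n = 4, 4 and 3), and Il6 averaged 1.91, 2.02 and 1.80 in the same order of groups, near the bottom of the scale, so that it checked nothing about the IL6-KO label. Pearson r between arrays over all genes was 0.985 to 0.994, and array medians lay between 5.09 and 5.23. On the first principal component the knockout arrays lay between -15.7 and 5.8 and the wild-type arrays between 20.1 and 23.3. On the next one, 2 Mdr2-KO arrays stood apart, replicate 2 at 25.8 and replicate 3 at -21.0, and values without one or both are given where they move a result of the members.

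The promoters of the members show what is shared in sequence before any level is compared. Of the 5 genes 4 had an entry in the RefSeq promoter table of build GRCm38.p6. The 250 bases before each annotated start are printed on the gene's own strand, and the capitals mark CTGGGA, the core of the IL-6 response element described in fibrinogen promoters. Fga lies at chr3:83025903-83026152 on the plus strand, Fgb at chr3:83049864-83050113 on the minus strand, Fgg at chr3:83007474-83007723 on the plus strand and Fgl2 at chr5:21372423-21372672 on the plus strand.
Fga: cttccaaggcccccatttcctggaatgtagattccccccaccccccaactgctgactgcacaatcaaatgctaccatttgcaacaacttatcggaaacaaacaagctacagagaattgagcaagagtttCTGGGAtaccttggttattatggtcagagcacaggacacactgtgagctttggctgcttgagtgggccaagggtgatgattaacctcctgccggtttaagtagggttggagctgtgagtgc
Fgb: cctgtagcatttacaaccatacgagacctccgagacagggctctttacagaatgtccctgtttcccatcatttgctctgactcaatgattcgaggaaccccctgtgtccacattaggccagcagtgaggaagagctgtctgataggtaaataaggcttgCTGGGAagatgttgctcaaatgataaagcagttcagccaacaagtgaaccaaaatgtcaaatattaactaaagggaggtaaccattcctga
Fgg: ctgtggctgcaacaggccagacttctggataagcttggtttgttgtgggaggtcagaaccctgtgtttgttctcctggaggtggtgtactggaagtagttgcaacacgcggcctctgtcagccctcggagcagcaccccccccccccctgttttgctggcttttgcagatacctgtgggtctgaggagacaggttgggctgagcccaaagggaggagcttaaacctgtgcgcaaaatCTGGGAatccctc
Fgl2: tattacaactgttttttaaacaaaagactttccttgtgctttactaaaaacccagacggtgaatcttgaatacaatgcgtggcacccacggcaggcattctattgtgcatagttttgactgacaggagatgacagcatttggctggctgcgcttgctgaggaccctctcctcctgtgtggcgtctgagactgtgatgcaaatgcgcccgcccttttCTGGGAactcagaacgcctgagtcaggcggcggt

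The core CTGGGA was found in all 4 windows, on the gene's own strand each time. It sat at bases -121 to -116 of Fga, -91 to -86 of Fgb, -13 to -8 of Fgg and -34 to -29 of Fgl2. The motif is short, and 27.0% of the 32851 promoter windows of the table held it on either strand. The palindromic STAT motif TTCNNNGAA was found in 3 of the windows, at -234 to -226 of Fga, -162 to -154 of Fgb and -36 to -28 of Fgl2, where it overlaps the CTGGGA, against 7.02% of all windows. The C/EBP motif TTGCNNAA, searched on both strands and so also as TTNNGCAA, was found at -135 to -128 of Fga and -80 to -73 of Fgb, against 9.56% of windows. The E box CACGTG was in none of the 4 and in 6.02% of all windows. A match describes letters and not a bound site.

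**Figure D1:**
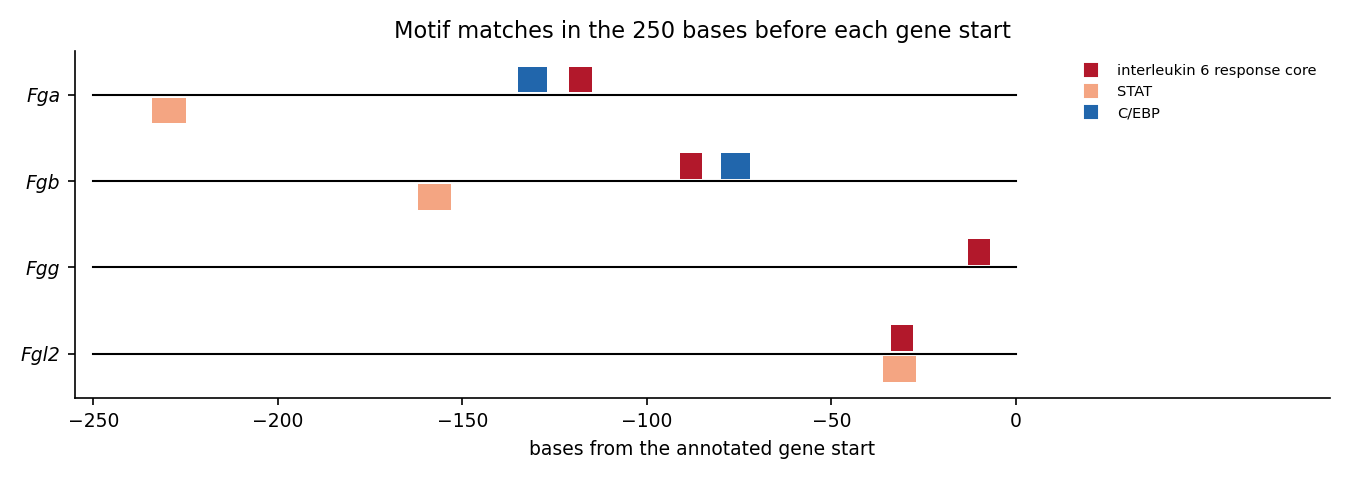
Motif matches (coloured boxes) in the 250 bases before the annotated start of 4 genes, by distance from the start in bases. STAT matches are drawn below the line and the others above it. Fga and Fgb hold all 3 kinds of motif, Fgg only the IL-6 response core at -13, and Fgl2 that core inside a STAT match.

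Fgl1 was the member that differed most between the genotypes, and its 3 groups formed 3 separate levels. Its probe set 10578352 read 8.80, 8.69, 8.97 and 8.80 on the log2 scale in Mdr2-KO/IL6-KO livers. The Mdr2-KO livers read 10.41, 10.46, 10.93 and 11.24, and the wild-type livers 11.97, 11.76 and 12.41. Every double-knockout array lay below every Mdr2-KO array, by at least 1.44, and every Mdr2-KO array lay below every wild-type array, by at least 0.52. The group means were 8.82 ± 0.115 in Mdr2-KO/IL6-KO, 10.76 ± 0.397 in Mdr2-KO and 12.04 ± 0.332 in wild type (SD, n = 4, 4 and 3).

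In linear terms the Fgl1 level in Mdr2-KO/IL6-KO livers was 3.84-fold lower than in Mdr2-KO livers (log2 change -1.94 ± 0.178 SE, 95% interval -2.33 to -1.56). Mdr2-KO livers were 2.44-fold lower than wild type (log2 change -1.29 ± 0.193 SE), and Mdr2-KO/IL6-KO livers 9.37-fold lower than wild type (log2 change -3.23 ± 0.193 SE). Of the whole difference between double knockout and wild type, 60.2% lay between the knockout groups and 39.8% between Mdr2-KO and wild type. Among falls over all genes that of Fgl1 ranked 2 between the knockout groups and 25 between Mdr2-KO and wild type. Fgl1 was the single gene called by limma between the knockout groups, which is the value that chose it. That is 0.00502% of all genes, while 961 genes had an unadjusted p under 0.05. Leaving out any 1 array kept the change between the knockout groups between -2.06 and -1.78.

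The fibrinogen chains were lower in Mdr2-KO/IL6-KO livers than in wild-type livers, by 1.83-fold for Fga and by 1.47-fold for each of Fgb and Fgg. All 3 passed the threshold there, an adjusted p under 0.05 over all genes by limma, as did 4.19% of all genes, made up of 1.28% lower and 2.91% higher. In the stepwise comparisons none of the 4 members other than Fgl1 passed. Between the knockout groups 0 of 4 was called, against 0.00502% of all genes, and 3 had an unadjusted p under 0.05. Between Mdr2-KO and wild type 0 of 4 was called, against 1.26% of all genes, 0.948% higher and 0.316% lower. There 2 had an unadjusted p under 0.05. Of all 19938 genes 961 had such a p between the knockout groups, 406 of them lower. Between Mdr2-KO and wild type it was 1951, with 816 lower. Between the double knockout and wild type it was 3090, with 1216 lower. These numbers are the background for the unadjusted counts of the lists below. The shares of all genes called, 0.00502%, 1.26% and 4.19% in the same order of comparisons, are the background for their called counts. At such shares 0 called in a short list is near the background. The arrays of the 2 groups did not overlap for 3 of the 4 members between the knockout groups, where that held for 2.51% of all genes and 0.908% in the lower direction. It held for 2 of the 4 between Mdr2-KO and wild type, against 9.13% of all genes and 3.64% in the lower direction. Between the double knockout and wild type it was 3 of the 4, against 16.3% and 6.44%. All of these members were lower in the first-named group.

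Fgb encodes the Bβ chain. Its probe set 10498981 read 12.07, 12.06, 12.18 and 12.03 in Mdr2-KO/IL6-KO livers, against 12.34, 12.29, 12.40 and 12.36 in Mdr2-KO livers and 12.69, 12.56 and 12.67 in wild-type livers. The 3 groups did not overlap and stood in the same order as for Fgl1, with steps that were small but larger than the spread within groups. The log2 change was -0.26 ± 0.0728 (SE) between the knockout groups (limma adjusted p = 0.763), -0.30 ± 0.0786 between Mdr2-KO and wild type (adjusted p = 0.104) and -0.56 ± 0.0786 between the double knockout and wild type (adjusted p = 0.00137).

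Fgg, the γ chain gene, gave nearly the same picture on its probe set 10492735. It read 12.21, 12.27, 12.18 and 12.14 in Mdr2-KO/IL6-KO livers, against 12.43, 12.34, 12.55 and 12.44 in Mdr2-KO livers and 12.81, 12.68 and 12.77 in wild-type livers. Again no group overlapped another, though the gap between the knockout groups was only 0.065. The log2 changes were -0.24 ± 0.0754 (SE; limma adjusted p = 0.93) between the knockout groups, -0.32 ± 0.0815 (adjusted p = 0.0931) between Mdr2-KO and wild type, and -0.55 ± 0.0815 (adjusted p = 0.00175) between the double knockout and wild type. Both Fgb and Fgg kept the last of these calls in all 21 other settings tried.

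Fga, the Aα chain gene, differed from its partners in how widely its arrays spread. Its probe set 10492748 read 9.11, 9.10, 9.09 and 9.11 in Mdr2-KO/IL6-KO livers, against 9.37, 9.28, 10.24 and 9.46 in Mdr2-KO livers and 10.36, 9.57 and 9.98 in wild-type livers. The 4 double-knockout arrays were almost equal and below all others, while Mdr2-KO replicate 3 lay within the wild-type range. The log2 change was -0.49 ± 0.195 (SE; limma adjusted p = 0.9995) between the knockout groups and -0.38 ± 0.211 (adjusted p = 0.624) between Mdr2-KO and wild type.

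Between the double knockout and wild type Fga changed by -0.87 ± 0.211 (SE; limma adjusted p = 0.0343). This call was lost when wild-type replicate 1 or 3 or any 1 of the 4 double-knockout arrays was left out (adjusted p up to 0.164, without wild-type replicate 1, where the change was -0.67). Without Mdr2-KO replicate 3, one of the arrays that stand apart, the change between the knockout groups was -0.27, and without both such arrays -0.31. A second Fga probe set, 10492755, differed in the same directions, by -0.54, -0.25 and -0.80 in the 3 comparisons in the same order.

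Fgl2, the immune relative, showed no such order. Its probe set 10519983 read 6.60, 6.24, 6.19 and 6.58 in Mdr2-KO/IL6-KO livers, against 6.01, 5.88, 6.48 and 6.09 in Mdr2-KO livers and 6.63, 5.70 and 6.24 in wild-type livers. The arrays of all 3 groups overlapped. The log2 change was 0.29 between the knockout groups (95% interval -0.11 to 0.68, limma adjusted p = 0.9995), -0.07 between Mdr2-KO and wild type (-0.50 to 0.35, adjusted p = 0.963) and 0.21 between the double knockout and wild type (-0.21 to 0.64, adjusted p = 0.716). These intervals leave room for a change in either direction. The sign against wild type turned when single arrays were left out.

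**Figure D2:**
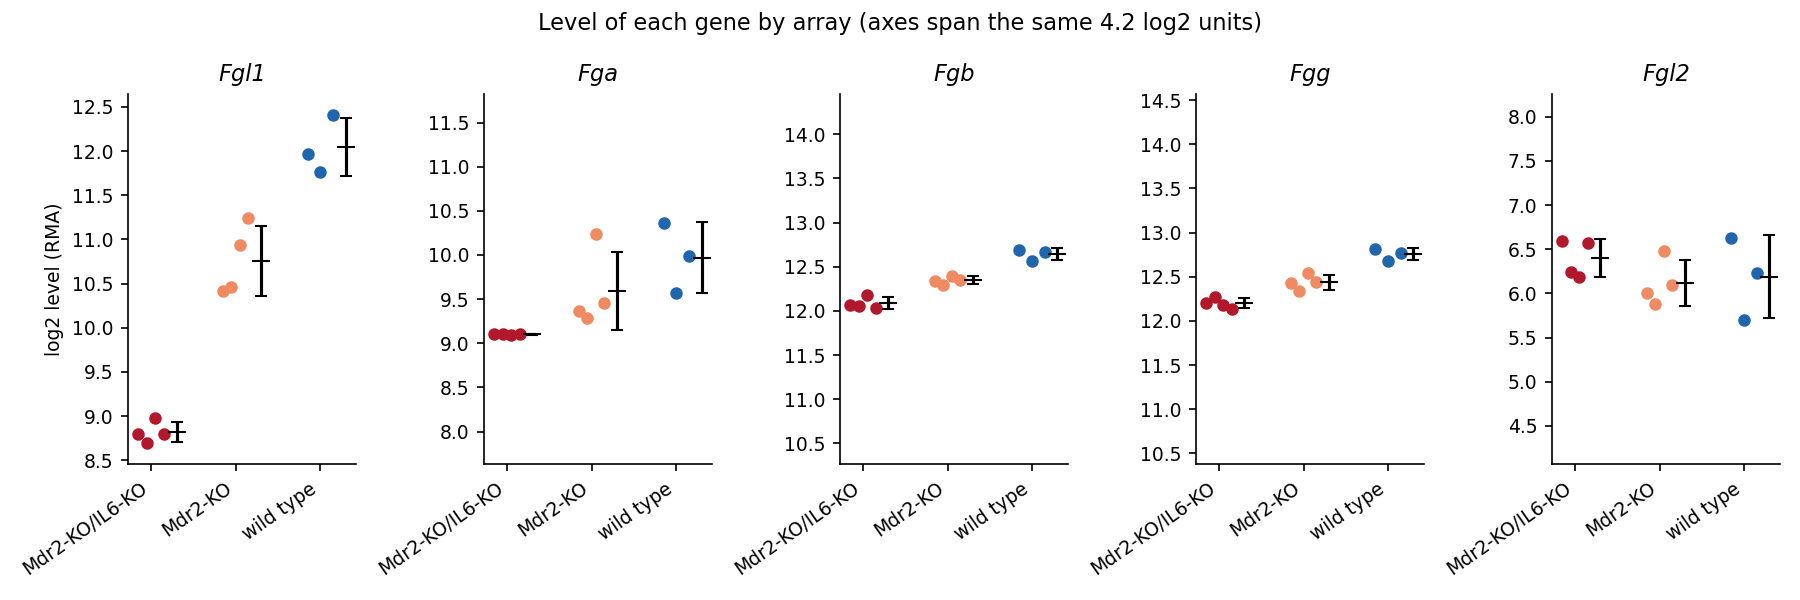
Log2 level of each gene (y axis, deposited RMA values) on every array (points), with the group mean and SD beside them in black; groups run from Mdr2-KO/IL6-KO (n = 4) over Mdr2-KO (n = 4) to wild type (n = 3), and every panel spans the same range. Fgl1 falls into 3 separate levels, Fgb and Fgg into 3 close ones, Fga is nearly constant at 9.10 in the double knockout, and Fgl2 overlaps.

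Set side by side, Fgl1 and the chains differed in size of change rather than in direction. Between the knockout groups Fgl1 changed by -1.94 and the 3 chains by -0.33 on average, a difference of -1.61 on the log2 scale. Between Mdr2-KO and wild type the values were -1.29 for Fgl1 and -0.33 for the chains. For Fgl1 the larger step was the one between the knockout groups. The near equality of the chains' steps rested on Mdr2-KO replicate 3, one of the arrays that stand apart. Without it the chains averaged -0.24 between the knockout groups and -0.42 between Mdr2-KO and wild type, while Fgl1 changed by -1.89 and -1.34. Without both such arrays the chains averaged -0.27 and -0.39, and Fgl1 changed by -2.01 and -1.22. These differences between genes were not tested, since Fgl1 was chosen for its change and the comparisons share the Mdr2-KO arrays. The genes also differed in brightness. Over the 11 arrays Fgb averaged 12.33 and Fgg 12.44, brighter than 99.8% and 99.9% of genes, against 10.40 for Fgl1 and 9.52 for Fga. Whether brightness bears on the size or the spread of these changes was not tested. A bulk sample also cannot tell fewer cells that make a transcript from less transcript per cell.

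**Figure D3:**
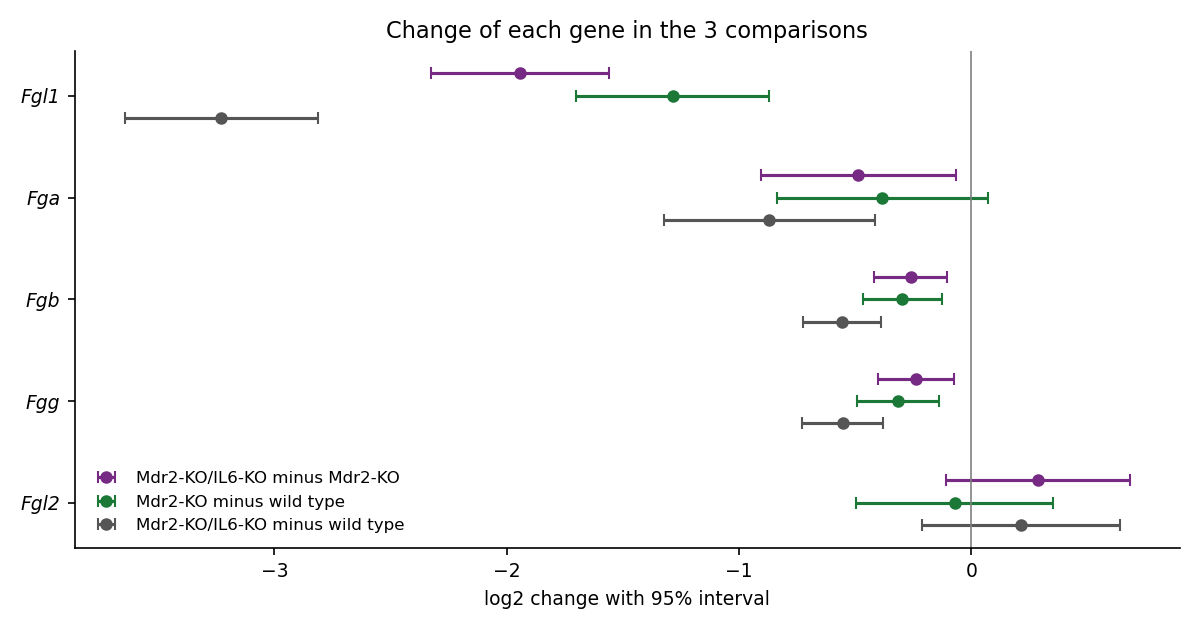
Log2 change of each gene (x axis; points with 95% intervals from the limma model) in the 3 comparisons, colours as in the key, with negative values lower in the first-named group. Fgl1 lies at -1.94, -1.29 and -3.23, the 3 chains between -0.87 and -0.24, and all 3 intervals of Fgl2 include 0.

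The members also differed in how much their arrays varied within a genotype. The SD of Fga was 0.00584 in Mdr2-KO/IL6-KO livers, 0.442 in Mdr2-KO livers and 0.398 in wild-type livers. Only 0.1% of all genes had a smaller SD in the double knockout, while 97.6% had a smaller one in Mdr2-KO and 97.9% in wild type. The Mdr2-KO value came from replicate 3. Without that array the SD of Fga in Mdr2-KO was 0.0863 over the other 3, and 27.9% of all genes had a smaller one. The wide spread of Fga in Mdr2-KO was thus that of 1 array, while its double-knockout SD does not involve that array. The second Fga probe set showed the same order, with SDs of 0.043 in the double knockout, 0.619 in Mdr2-KO and 0.645 in wild type. Fgl1 was likewise tighter in the double knockout, at 0.115, than in Mdr2-KO (0.397, or 0.466 without replicate 3) and wild type (0.332). Fgb and Fgg had small SDs in all groups, from 0.0458 to 0.085.

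The acute-phase list, 32 hepatocyte genes without the members of which 29 were measured, was also tightest in the double knockout. Its median within-group SD was 0.0996 in Mdr2-KO/IL6-KO livers, 0.237 in Mdr2-KO livers and 0.20 in wild-type livers, while the median over all genes was 0.127, 0.155 and 0.11. The SD was smaller in the double knockout than in both other groups for 21 of the 29 genes, against 32.6% of all genes. Without both Mdr2-KO arrays that stand apart the list's median SD in Mdr2-KO was 0.109 over the 2 that remained, against 0.0905 over all genes. The count was then 16 of 29, against 22.1% of all genes. This is a description with no test, over few arrays per group.

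**Figure D4:**
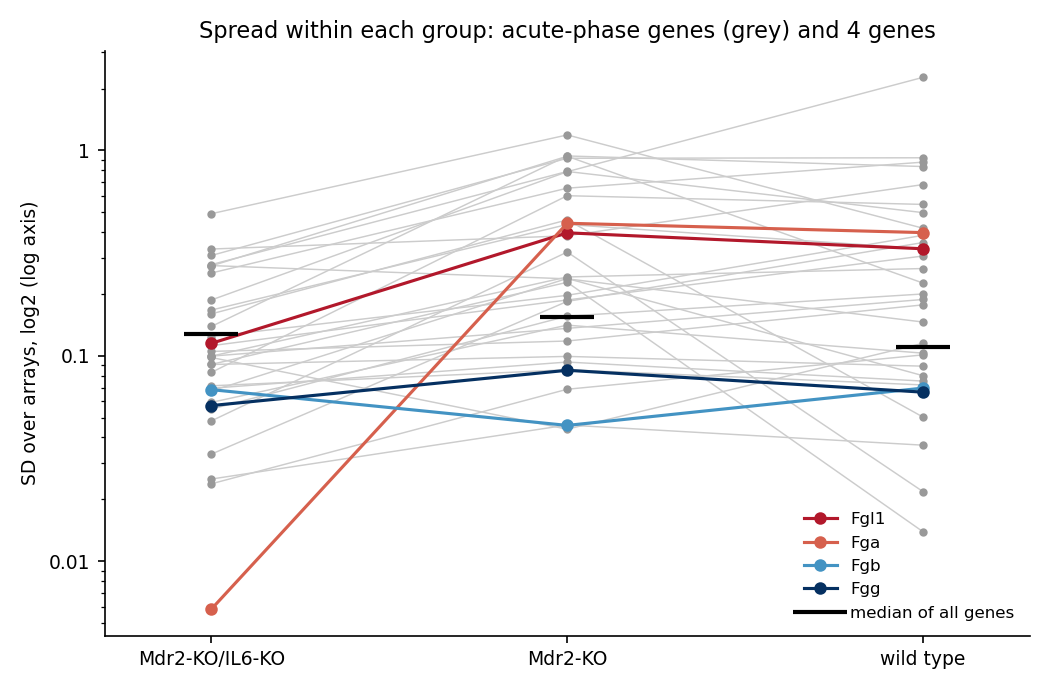
SD of the log2 level over the arrays of each group (y axis, log scale) for 29 acute-phase genes (grey), for Fgl1, Fga, Fgb and Fgg (coloured) and for the median of all genes (black bars). Fga has an SD of 0.00584 in Mdr2-KO/IL6-KO livers, against 0.442 in Mdr2-KO (0.0863 without replicate 3) and 0.398 in wild type.

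Deviations of the arrays from their group means showed which members moved together within a genotype. Over the 11 arrays Pearson r of these deviations was 0.815 for Fga with Fgg (rho = 0.755), 0.638 for Fga with Fgb (rho = 0.591) and 0.569 for Fgb with Fgg (rho = 0.573). The highest value among the 10 pairs was that of Fga with Fgl2, 0.849 (rho = 0.882), and Fgl1 was linked more loosely, at 0.351 to 0.564 with the other 4. These are descriptions over few arrays that share hybridisation and RNA quality. The Mdr2-KO array with the highest Fga, Fgg and Fgl2 of its group was replicate 3, and the one with the lowest of all 3 was replicate 2, which are the arrays at the opposite ends of the next principal component. Without both, over 9 arrays, r was 0.678 for Fga with Fgg, 0.593 for Fga with Fgb, 0.393 for Fgb with Fgg, 0.879 for Fga with Fgl2, and 0.143 to 0.478 for Fgl1 with the other 4.

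Among the acute-phase genes Fgl1 stood at the end of the range between the knockout groups and the chains in the middle. None of the 29 had a larger fall there than Fgl1, the nearest being Saa1, a serum amyloid A gene, at -1.40. Fgl1 was chosen by this same fall, so its place at the end of the range follows from the choice. Between Mdr2-KO and wild type 5 of the 29 had a larger fall than Fgl1, namely Mt2, Mt1, Saa1, Saa2 and Apcs. For Fgb and Fgg 16 of the 29 had a larger fall in each of the 3 comparisons.

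By the test over all genes, 0 of the 29 acute-phase genes was called between the knockout groups by limma, although 14 had an unadjusted p under 0.05, all lower, and the median change was -0.39 against 0.0099 over all genes. That count was 1 with cyclic loess, among brighter genes, with trend and robust eBayes and with array weights. Between Mdr2-KO and wild type 4 fell and none rose (median -0.36), where 0.316% of all genes fell. Between Mdr2-KO/IL6-KO and wild type 15 fell and none rose (median -0.71), where 1.28% of all genes fell. The count of 4 was 9 with array weights, 1 in the unmoderated model or with only the 2 groups compared, 1 without wild-type replicate 1 or 3, 7 without wild-type replicate 2 and 3 without the 2 Mdr2-KO arrays that stand apart, while the count of 15 stayed between 13 and 17 when any 1 array was left out. Of the genes that fell, Itih4, a plasma inter-α-trypsin inhibitor heavy chain, averaged 11.44 in Mdr2-KO/IL6-KO, 11.99 in Mdr2-KO and 12.48 in wild type, with changes of -0.55 (limma adjusted p = 0.0706), -0.49 (adjusted p = 0.0128) and -1.04 (adjusted p = 2.04e-05) in the 3 comparisons. Its call between Mdr2-KO and wild type, like that of Mt1, ended without wild-type replicate 1 or 3. Serpina3n, a protease inhibitor, averaged 10.25, 10.72 and 11.55 in the same groups and fell by 0.84 in Mdr2-KO against wild type (adjusted p = 0.0108). The metallothionein Mt1 averaged 8.55, 9.64 and 11.64 and fell by 1.998 there (adjusted p = 0.0155).

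The list mean by array was 9.87, 9.76, 9.79 and 9.86 in Mdr2-KO/IL6-KO livers, against 10.06, 10.03, 10.54 and 10.31 in Mdr2-KO livers and 10.89, 10.34 and 10.92 in wild-type livers. The double knockouts lay below every other array, whereas 1 Mdr2-KO array, replicate 3, lay above wild-type replicate 2. Gene by gene, 11 of the 29 were lower in Mdr2-KO than in wild type with no overlap between the arrays, as were Fgl1, Fgb and Fgg, against 3.64% of all genes. Acute-phase genes did not all go the way of Fgl1. Hamp, which encodes the iron hormone hepcidin, averaged 11.43 in Mdr2-KO/IL6-KO, 10.57 in Mdr2-KO and 8.70 in wild type with a wild-type SD of 2.27, and did not pass (limma adjusted p = 0.0568 between double knockout and wild type).

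**Figure D5:**
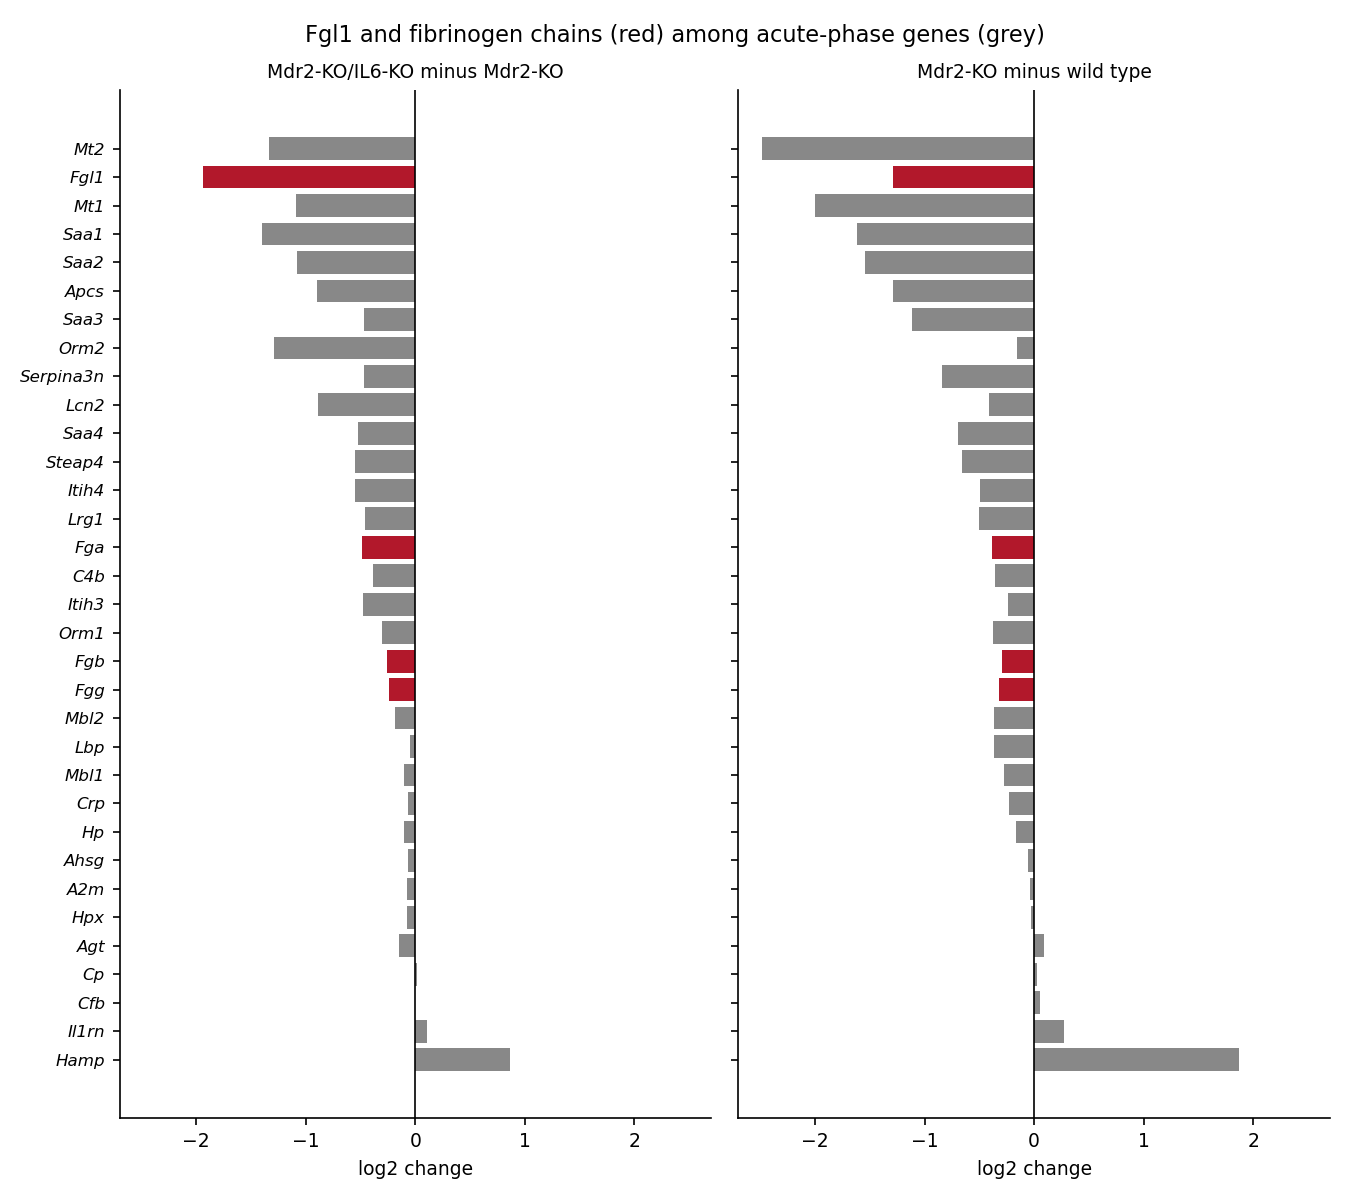
Log2 change (x axis) of Fgl1 and the 3 fibrinogen chains (red) and of 29 acute-phase genes (grey) between the knockout groups (left) and between Mdr2-KO and wild type (right), sorted by the sum of both. Fgl1, which was chosen by its fall between the knockout groups, has the longest bar on the left, at -1.94. The chains sit in the middle of the list.

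Regulators of these genes were looked at next. Of 14 measured hepatocyte transcription factors known at fibrinogen and related promoters, 0 was called by limma between the knockout groups (4 at an unadjusted p under 0.05, all lower). Between Mdr2-KO and wild type 0 was called (2, both lower). Between Mdr2-KO/IL6-KO and wild type 3 fell, where 1.28% of all genes fell. Stat3, the transcription factor through which IL-6 acts, averaged 8.52 ± 0.103 in Mdr2-KO/IL6-KO, 9.06 ± 0.256 in Mdr2-KO and 9.55 ± 0.186 in wild type (SD, n = 4, 4 and 3), and fell 2.05-fold between the double knockout and wild type (limma adjusted p = 0.000738). Its stepwise changes were -0.55 between the knockout groups (adjusted p = 0.628) and -0.49 between Mdr2-KO and wild type (adjusted p = 0.12). Stat3 is itself a known target of IL-6 signalling. Its group means stood in the order of those of Fgl1, but its Mdr2-KO and wild-type arrays overlapped. A link between Stat3 and the members was not tested.

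Foxa3, a hepatocyte forkhead factor, fell 1.55-fold (limma adjusted p = 0.00583), and Nr1h4, the bile acid receptor FXR, which is known to act on fibrinogen genes, fell 1.36-fold (adjusted p = 0.0189), both between Mdr2-KO/IL6-KO and wild type. The Nr1h4 call ended when any of 5 arrays was left out. Cebpb, a C/EBP factor of the acute-phase response, averaged 7.85 in Mdr2-KO/IL6-KO, 7.84 in Mdr2-KO and 7.91 in wild type, and did not pass in any comparison.

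Of 26 measured genes of IL-6 and STAT3 signalling, 0 was called by limma in either stepwise comparison (3 in each at an unadjusted p under 0.05). Between Mdr2-KO/IL6-KO and wild type 3 fell and 1 rose, where 1.28% of all genes fell and 2.91% rose. Besides Stat3, Pim1, a kinase induced by STAT3, fell 1.56-fold (limma adjusted p = 0.0151), and Il22ra1, the receptor chain of interleukin 22, rose 1.72-fold (adjusted p = 0.0306). The Il22ra1 call ended when any of 6 arrays was left out and the Pim1 call without wild-type replicate 1 or 2. The count of 3 was 1 without wild-type replicate 2 and 4 without the 2 Mdr2-KO arrays that stand apart. The list's median change was -0.05.

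Other proteins of clotting were read beside the fibrinogen chains. Of 29 measured coagulation factors 0 was called by limma in either stepwise comparison (3 in each at an unadjusted p under 0.05), and 2 fell between Mdr2-KO/IL6-KO and wild type, where 1.28% of all genes fell, with a median change of -0.03 over the list. Serpina10, which inhibits activated factor X, fell 1.89-fold (limma adjusted p = 0.0068), and Kng1, the kininogen of the contact system, fell 1.26-fold (adjusted p = 0.0318), a call that ended when any of 7 arrays was left out.

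Among 12 measured genes of fibrinolysis, the breakdown of fibrin, calls were upward. In Mdr2-KO against wild type 1 rose, where 0.948% of all genes rose. In the double knockout against wild type 3 rose, where 2.91% of all genes rose. Plat, tissue plasminogen activator, averaged 6.21 ± 0.119 in Mdr2-KO/IL6-KO, 5.90 ± 0.142 in Mdr2-KO and 5.05 ± 0.277 in wild type (SD, n = 4, 4 and 3). It rose 1.80-fold in Mdr2-KO against wild type (limma adjusted p = 0.00531) and 2.24-fold in the double knockout against wild type (adjusted p = 0.000222). Anxa2, an annexin that binds plasminogen and its activator, rose 2.65-fold (adjusted p = 0.00209) and Thbs1, thrombospondin, 1.47-fold (adjusted p = 0.0224) in the double knockout against wild type; the call of Thbs1 ended when any of 5 arrays was left out. No member was called by limma between the knockout groups (3 at an unadjusted p under 0.05, all higher).

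Other genes with a fibrinogen-like domain were compared too. Of 15 measured members of that family, which includes angiopoietins, ficolins and tenascins, 0 was called by limma in any of the 3 comparisons (2, 3 and 4 at an unadjusted p under 0.05), where 0.00502%, 1.26% and 4.19% of all genes were called, so that 0 of 15 is near the background. Without Mdr2-KO/IL6-KO replicate 4, 1 was called higher in each comparison with wild type, and without wild-type replicate 3, 1 was called lower in the double knockout against wild type. The lowest p belonged to Angpt1, an angiopoietin, at 3.72 in Mdr2-KO/IL6-KO, 3.76 in Mdr2-KO and 3.39 in wild type (limma adjusted p = 0.0758 between double knockout and wild type).

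Of 14 receptors of fibrinogen, Fgl1 and Fgl2, 1 was called, in the double knockout against wild type. There 4.19% of all genes were called, 2.91% higher. Without wild-type replicate 3, 1 receptor was called lower in each comparison with wild type. Itgav, an integrin chain that binds fibrinogen, rose 1.28-fold in Mdr2-KO/IL6-KO against wild type (limma adjusted p = 0.0351), a call that ended when any of 7 arrays was left out. Lag3, the receptor of Fgl1, averaged 4.95 ± 0.154 in Mdr2-KO/IL6-KO, 4.94 ± 0.0914 in Mdr2-KO and 5.05 ± 0.108 in wild type (SD, n = 4, 4 and 3) and did not pass (adjusted p of at least 0.72). Fcgr2b, the inhibitory receptor of Fgl2, averaged 7.99, 7.91 and 7.51 in the same groups (adjusted p = 0.0883 between double knockout and wild type), and Fcgr3 averaged 6.68, 6.58 and 6.57.

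Other secreted proteins of hepatocytes were read for comparison. Of 21 measured secreted hepatocyte proteins not on the acute-phase list, 0 was called by limma in either stepwise comparison (4 and 3 at an unadjusted p under 0.05, all lower). The acute-phase list does not hold every gene of that response, so being one of the 21 does not place a gene outside it. Between Mdr2-KO/IL6-KO and wild type 3 of the 21 fell, where 1.28% of all genes fell, with a list median of -0.16. These were Serpina6, the corticosteroid carrier (1.88-fold, limma adjusted p = 0.0024), Pon1, paraoxonase (1.41-fold, adjusted p = 0.0163), and Fetub, a fetuin (1.51-fold, adjusted p = 0.031). The Fetub call ended when any of 6 arrays was left out and the Pon1 call when any of 3 was. Of 16 chaperones of the secretory pathway 0 was called by limma in any comparison (at most 2 at an unadjusted p under 0.05). The lowest p was that of Dnajb9, with a change of -0.65 between double knockout and wild type (limma adjusted p = 0.159). Without Mdr2-KO replicate 2, or without both arrays that stand apart, 1 chaperone was called lower in the double knockout against wild type.

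Markers of the cells in the tissue were read beside these results. The 10 measured hepatocyte markers had a list mean of 11.63 to 11.89 in Mdr2-KO/IL6-KO, 11.58 to 11.84 in Mdr2-KO and 11.80 to 11.89 in wild type, and 0 was called by limma in any comparison (1, 1 and 5 at an unadjusted p under 0.05). Of all genes 0.00502%, 1.26% and 4.19% were called, so that 0 of 10 is near the background. The count of 0 held with any 1 array left out. In some other settings up to 2 were called lower and up to 1 higher between Mdr2-KO/IL6-KO and wild type. The list means of the 3 groups overlapped. Gene by gene, between Mdr2-KO/IL6-KO and wild type 6 of the 10 were lower and 1 was higher with no overlap between the arrays. Of all genes 16.3% had no overlap in either direction and 6.44% in the lower direction. The list's median change was -0.12. The part of these shifts in the changes of the members was not tested. The lowest p was that of the asialoglycoprotein receptor Asgr1 (change of -0.29 between double knockout and wild type, adjusted p = 0.088).

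Markers of other cell types were called against wild type for part of each list. Of all genes 0.948% rose in Mdr2-KO and 2.91% in the double knockout against wild type. Of 9 measured cholangiocyte markers 4 rose in each comparison with wild type (7 in the double knockout without its replicate 4), and the summed linear level was 613 to 826 in Mdr2-KO/IL6-KO, 631 to 773 in Mdr2-KO and 381 to 415 in wild type, with Krt19, Epcam and Cd24a among the genes that rose. Of 12 stellate cell and myofibroblast genes 6 rose in the Mdr2-KO and 7 in the double knockout against wild type, with sums of 3524 to 4149, 3292 to 3756 and 2573 to 2892 in Mdr2-KO/IL6-KO, Mdr2-KO and wild type, and Col1a1, Col1a2 and Col3a1 were among them, while Acta2, Des, Lrat and Reln did not pass in either comparison. Neither list had a call between the knockout groups. Of 12 endothelial markers, not all particular to sinusoids, 1, Cd34, rose in Mdr2-KO and 3 rose in the double knockout against wild type. The sums of that list were 2761 to 3254, 2539 to 3062 and 2241 to 2699 in the same order of groups. Of the 3 that rose in the double knockout, Cd34 kept its call when any 1 array was left out. The calls of Stab1 and Lyve1 ended when any of 8 and any of 6 arrays was left out. None of the markers of these cell types lay among the dimmest 10% of genes. The part of these cell types in the changes of Fgl1 and the chains was not tested.

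Immune and blood cell markers bear on Fgl2 and on the receptors. Of 12 Kupffer cell and macrophage markers 0 was called by limma in any comparison (at most 1 at an unadjusted p under 0.05), with list sums of 3720 to 4737 in Mdr2-KO/IL6-KO, 3291 to 4617 in Mdr2-KO and 2610 to 6752 in wild type, and Lyz2, lysozyme, had the lowest p. In Mdr2-KO against wild type 1 of the 12 was called higher without wild-type replicate 1 or 2. In the double knockout against wild type 1 was called higher without wild-type replicate 1, and 1 lower without wild-type replicate 3. The list means of the wild-type arrays were 8.27, 8.32 and 7.17, while their Fgl2 levels were 6.63, 5.70 and 6.24. Of 10 T and NK cell markers 3, Cd8a, Gzma and Gzmb, fell between Mdr2-KO/IL6-KO and wild type, where 1.28% of all genes fell. Gzma averaged 3.39 in Mdr2-KO/IL6-KO, 3.50 in Mdr2-KO and 3.99 in wild type, and Gzmb 4.05, 4.27 and 4.83. All of these means lay below the array medians of 5.09 to 5.23. Cd8a averaged 5.53, 5.56 and 6.11, and its double-knockout and wild-type arrays overlapped. The sums of that list were 237 to 290 in Mdr2-KO/IL6-KO, 253 to 342 in Mdr2-KO and 294 to 517 in wild type. The 3 calls were 0 when any of 5 single arrays was left out and 1 without the 2 Mdr2-KO arrays that stand apart. Of 9 platelet markers 1, Ppbp, fell in the same comparison, beside the same 1.28% of all genes. The Ppbp call ended when any of 4 arrays was left out. The platelet sums were 379 to 445 in Mdr2-KO/IL6-KO, 382 to 460 in Mdr2-KO and 445 to 601 in wild type. Clec1b, the brightest of the 9, weighs most in these sums, at 7.01, 7.07 and 7.60 in the same order of groups. Between Mdr2-KO/IL6-KO and wild type 8 of the 9 were lower and 1 higher, with a median change of -0.095. The higher one was Pf4, at 5.52, 5.22 and 5.14. Neither Clec1b nor Pf4 passed in any comparison.

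The genes whose levels were most like those of Fgl1 over the 11 arrays included several secreted liver proteins. Among the 9720 named genes brighter than the median gene, the highest Pearson r belonged to Itih4 (0.985, rho = 0.973), followed by the amino acid transporter chain Slc3a1 (0.976), Fgb (0.967), C4b (0.965), Itih3 (0.964), the complement factor Cfi (0.957), Pzp (0.946), and Wfdc21 (0.945). Without the 2 arrays farthest from the median of Fgl1 these values were 0.928 to 0.977. Because Fgl1 falls into 3 separate groups, such an r mostly repeats the order of the group means, and it is given only as the measure of likeness. Slc3a1 had the steepest steps of the 8, at 7.999 in Mdr2-KO/IL6-KO, 8.86 in Mdr2-KO and 9.65 in wild type, and fell in both comparisons with wild type (limma adjusted p = 9.21e-05 for the double knockout and 0.0316 for Mdr2-KO, where the call ended when any of 5 arrays was left out). The most opposite genes were Tpgs2 (-0.949), Lzts3 (-0.948), Reep4 (-0.948) and Ogt (-0.937).

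Within groups, where the order of the genotypes is taken out, the genes whose deviations were most like those of Fgl1 were Hpx, the heme carrier hemopexin (0.94), Gtpbp3 (0.929), Orm2, an orosomucoid (0.927), Itih3 (0.911), Tuba1a (0.908) and Ubqln2 (0.902). Itih3 was the gene on both lists. Orm2 averaged 8.77 in Mdr2-KO/IL6-KO, 10.06 in Mdr2-KO and 10.22 in wild type, with SDs of 0.139, 0.94 and 0.835. The larger difference of its means was that between the knockout groups (change of -1.29, limma adjusted p = 0.879), against -0.16 between Mdr2-KO and wild type (adjusted p = 0.963). Orm2 did not pass in any comparison. For Fgb the likest by deviations were Eml2 (0.915), Lbp, the lipopolysaccharide-binding protein (0.907), H2-T10 (0.903), Atpif1 (0.902), Tbc1d10b (0.901) and Tmem176b (0.894). Each is the top of a search over 9720 genes on 11 arrays.

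The measured neighbours of each member were read as well. Beside Fgl1 on chromosome 8, in the gene order of RefSeq build GRCm38.p6, the measured neighbours were Slc7a2, Pdgfrl and Mtus1 on one side and Pcm1, Asah1 and Frg1 on the other. None of them was called lower, and Slc7a2, a transporter of basic amino acids, rose between Mdr2-KO/IL6-KO and wild type (change of 0.67, limma adjusted p = 0.0448), a call that ended when any of 9 arrays was left out. In that comparison 2.91% of all genes rose and 1.28% fell. On chromosome 3 the 3 chain genes lie together, and none of the 6 nearest measured genes around them, Npy2r, Rbm46, Lrat, Plrg1, Gm10710 and Sfrp2, was called in any comparison. At most 4.19% of all genes were called in a comparison, so that 0 of 6 is near the background.

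Fgl2 lies on chromosome 5 between the 2 targeted genes, with 23 measured genes between it and Abcb4 and 68 between it and Il6. None of its 6 nearest measured neighbours, Ptpn12, Gsap, Ccdc146, Fam185a, Fbxl13 and Lrrc17, was called. Of all 92 measured genes between Abcb4 and Il6, 0 was called between the knockout groups, 1 between Mdr2-KO and wild type and 6 between Mdr2-KO/IL6-KO and wild type, which is 0.0%, 1.09% and 6.52% of them, against 0.00502%, 1.26% and 4.19% of all genes.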

How the data were processed

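RNA of 11 liver samples was measured on Affymetrix arrays. The authors deposited 1 table of log2 values, which were RMA-normalized with Partek according to the submitters' processing notes; versions and settings are not given in the sources used here. In all, the table holds 35557 probe sets, of which 21789 had 1 gene symbol, 1621 several and 12147 none. Symbols were updated by Entrez identifier to RefSeq (GRCm38.p6; 19856 of 19938 genes matched), and 999 genes had several probe sets. The values were not normalized further. The labels name no batch, and replicate numbers follow the sample order and pair nothing.

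Groups were compared with limma 3.58.1 in R 4.3.3, in 1 model of 11 arrays with 3 contrasts, eBayes, two-sided, and Benjamini-Hochberg adjustment over 19938 genes; called means adjusted p under 0.05. No test was run on lists. The number of arrays limits the precision. The fit was checked on simulated data.

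Members and lists were chosen with earlier results of these data known. Genes named are the members, Abcb4 and Il6, the 8 genes most and 4 least like Fgl1 by Pearson r over the arrays, the 6 most like Fgl1 and Fgb by deviations from group means (genes brighter than the median, no predicted loci), up to 3 called members of a list by lowest p or else 1, 3 measured neighbours on each side, and set receptors and regulators, of which 1 regulator and its motif are not reported here. Saa1, Saa2, Apcs, Mt2, Hamp, Acta2, Des, Lrat, Reln, Clec1b and Pf4 were named after their values were seen. Alternatives covered scaling, probe set choice, dim genes, variance model, array weights, the groups in the fit and each array left out; the fit without 2 Mdr2-KO arrays, and the spreads and correlations without 1 or both of them, were chosen after seeing the data.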

Additional observations from a re-analysis of the deposited data

How the results depend on the processing

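Under 21 other settings the changes of Fgl1 kept their direction and moved by less than the residual SD in all 3 comparisons. No paired analysis was possible because replicate numbers follow the sample order and pair nothing. The number of called genes depended most on the setting. Between the knockout groups it was 1, but 2 with median centring, 4 with cyclic loess, 4 among genes brighter than the median gene, 2 with trend and robust eBayes, 0 in the unmoderated model, 6 with array weights and 2 without both Mdr2-KO arrays that stand apart; leaving out 1 array gave 1 to 5, the 5 without Mdr2-KO replicate 3. Between Mdr2-KO and wild type it was 252, but 43 unmoderated, 138 with only the 2 groups compared and 410 with array weights, and 148 to 323 with 1 array left out, the 148 without wild-type replicate 2. Between Mdr2-KO/IL6-KO and wild type it was 836, but 496 unmoderated and 1341 with array weights, and 464 to 989 with 1 array left out, the 464 without wild-type replicate 1.

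The Fga change between Mdr2-KO/IL6-KO and wild type missed the threshold as the mean of its probe sets (-0.833, limma adjusted p = 0.0995) and unmoderated (-0.87, adjusted p = 0.148); with 1 array left out it was -1.07 to -0.67. Between Mdr2-KO and wild type Fgb passed among brighter genes (-0.297, adjusted p = 0.0443) and with trend and robust eBayes (-0.297, adjusted p = 0.0481), and Fgg among brighter genes (-0.317, adjusted p = 0.0405), with trend and robust eBayes (-0.317, adjusted p = 0.0426) and with array weights (-0.321, adjusted p = 0.0417). Over all settings these 2 adjusted p ranged from 0.0443 to 0.343 for Fgb and from 0.0405 to 0.318 for Fgg. The sign of Fgl2 reversed between Mdr2-KO and wild type without wild-type replicate 1 (0.149) and without Mdr2-KO replicate 2 (0.006), over a range of -0.318 to 0.149, and between Mdr2-KO/IL6-KO and wild type without wild-type replicate 2 (-0.032), over a range of -0.032 to 0.435. The cause of these shifts was not tested. Group sizes of 3 or 4 arrays limit all of them, and no detection calls were used, so a level near the bottom of the scale has no stated background.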
